A study of Mus musculus with 8 samples.

Results

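The 8 noncoding RNAs described here were *Gm26917*, *Gm42418*, *Malat1*, *Neat1*, *Rn7sk*, *Rmrp*, *Rpph1* and *Gas5*, found by their symbols in a table of 55335 gene rows from rRNA-depleted libraries. They took up 9 rows, since *Rmrp* was listed under 2 gene identifiers, and 7 of the 8 genes passed the filter on low counts. The genes were chosen by name with the counts of these libraries known, mainly because most of them were abundant, so their levels are a description and were not tested. The rule itself uses names only, but the members and the gene lists below were chosen with earlier results of these data known. The tests between genotypes are therefore not independent of that choice.

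The RNA came from T cells that infiltrate tumors (TILs), sorted as CD8+CD44+PD-1+ cells out of MC38 tumors, a mouse colon carcinoma implanted in young adult C57BL/6 mice. The 4 WT samples (Sample 1 to Sample 4) were from mice of genotype Lsd1f/f, in which the floxed *Lsd1* (*Kdm1a*) gene was intact, and each combined cells of 2 mice. The 4 KO samples (Sample 5 to Sample 8) were from Cd4-Cre+Lsd1f/f mice, 1 mouse each, in which Cre under the *Cd4* promoter acts already in developing T cells, before the tumor. Each sample held 10000 to 20000 sorted cells, and the sources give both day 18 and day 14 for the tumor. Both genotypes carried the floxed allele and the labels name no treatment.

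Library totals were 11657807 to 30295406 counts, the highest in Sample 8. Raw *Kdm1a* counts, not set against these totals, were 768, 867, 523 and 544 in WT and 384, 378, 384 and 989 in KO samples. The 989 came from Sample 8, so it cannot be compared directly with counts of the smaller libraries. With library size taken into account, the log2 fold change was -0.55 (adjusted p = 0.0163, edgeR quasi-likelihood test). All 11 T cell markers were measured, with *Cd8a* at 1340 CPM in WT and 1109 CPM in KO samples, and *Cd44* and *Cd2* were called higher in KO. The median log2 fold change of the 11 was -0.18 and 3 were above 0. *Cd8b1* (-0.39, adjusted p = 0.0158, under 0.01 in DESeq2) and *Cd3g* (-0.36, adjusted p = 0.0505) had lower values in KO without overlap. The groups did not overlap in 4 of the 11, in either direction, against 17.3% of all genes tested. Of 17 myeloid markers, 16 were tested and 12 were called lower in KO, against 4.90% of all genes tested called in either direction. The summed level of the 17 (counts put on 1 common total per library) was between 412 and 1275 CPM in the WT samples. In the KO samples it was between 204 and 297 CPM. *Ighm* and *Hbb-bs* were also called lower, 1 of 3 tested B cell and 1 of 1 tested red cell markers, while the B cell marker *Cd79a* had a value of 2.68 in the other direction (0.303 CPM in WT and 2.07 CPM in KO samples, no overlap, adjusted p = 0.0773). In edgeR 0 of 3 tested markers of CD4, regulatory T and NK cells passed (2 at an unadjusted p under 0.05, as were 24.5% of all genes tested, and 2 in DESeq2). All 3 had log2 fold changes above 0, with a median of 1.65. *Cd4* was at 4.54 CPM in WT and 14.3 CPM in KO samples (adjusted p = 0.0161, edgeR), without overlap. *Klrb1c* was at 0.459 CPM in WT and 3.86 CPM in KO samples (adjusted p = 0.0338, edgeR), also without overlap. The 8 tumor and stroma markers summed to at most 7.74 CPM. The part of these differences in the results below was not tested. In bulk RNA, fewer cells of a type and less RNA per cell cannot be told apart.

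Noncoding RNAs of these kinds do their work without being translated. The 7SK RNA (*Rn7sk*) forms a particle with MEPCE and LARP7 and, through HEXIM proteins, holds back P-TEFb, the kinase that releases paused RNA polymerase II. *Rpph1* is the RNA of RNase P, which trims the 5′ ends of tRNA precursors, and *Rmrp* is the RNA of RNase MRP, which takes part in rRNA processing. *Malat1* is retained in the nucleus at speckles, *Neat1* builds paraspeckles, and *Gas5* carries snoRNAs in its introns. *Gm26917* and *Gm42418* are neighbors on chromosome 17, where RefSeq lists a pseudogene related to 18S rRNA under the name *Rn18s-rs5*, with *Gm42418* as a synonym. rRNA depletion, used for these libraries, is aimed at mature rRNA and leaves RNAs with and without a poly(A) tail. Counts on mitochondrial rRNAs remained, as given below.

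The first sequence shown is the start of 7SK RNA, the only tested member with an adjusted p under 0.01 between genotypes, at a fold under 1.5. GATC, a motif repeated in the 5′ hairpin that HEXIM binds, is in capitals. Every copy in the bases shown is marked, and not every copy need lie in that hairpin or be bound by HEXIM. The second is the longer annotation of *Rmrp*, shown because the table lists this RNA under both annotations, and capitals mark the 5 bases at each end that the shorter annotation lacks. Both are the RNA strand written as DNA from the GENCODE M21 transcripts.
Rn7sk: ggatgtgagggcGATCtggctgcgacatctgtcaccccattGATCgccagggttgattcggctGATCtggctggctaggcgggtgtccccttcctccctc
Rmrp: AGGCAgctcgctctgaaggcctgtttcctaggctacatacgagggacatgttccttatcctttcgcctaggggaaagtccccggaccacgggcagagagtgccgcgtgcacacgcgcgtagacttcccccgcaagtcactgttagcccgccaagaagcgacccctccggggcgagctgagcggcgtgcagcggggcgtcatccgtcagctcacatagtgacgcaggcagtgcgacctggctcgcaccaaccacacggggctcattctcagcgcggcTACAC

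The 100 bases of *Rn7sk* are the first of 331 and lie at chr9:78175534-78175633 on the minus strand of GRCm38, and GATC, which reads alike on both strands, starts at positions 13, 42 and 64. Of 139316 annotated transcripts, 23.4% hold GATC at least once in their first 100 bases and 0.323% hold it 3 times or more. The *Rmrp* annotation of 281 bases lies at chr4:43492783-43493063 on the minus strand.

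The 8 RNAs together held 9.80% to 16.9% of all counts in a sample, and 37.9% to 58.0% of the counts on genes not annotated as protein-coding. *Gm26917* had the most counts of all genes over the 8 samples, with 11.1% of the total, followed by the mitochondrial rRNAs *mt-Rnr2* (7.32%) and *mt-Rnr1* (2.33%). *Gm42418* ranked 4, *Malat1* 5 and *Rn7sk* 7. The other RNAs lay far lower, with *Rpph1* at rank 85, *Neat1* at rank 215 and *Gas5* at rank 1338. The counting interval (95%, Wilson) of any share was at most 0.0182 percentage points to either side and covers counting error only, so the spread between samples was the larger error.

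**Figure D1:**
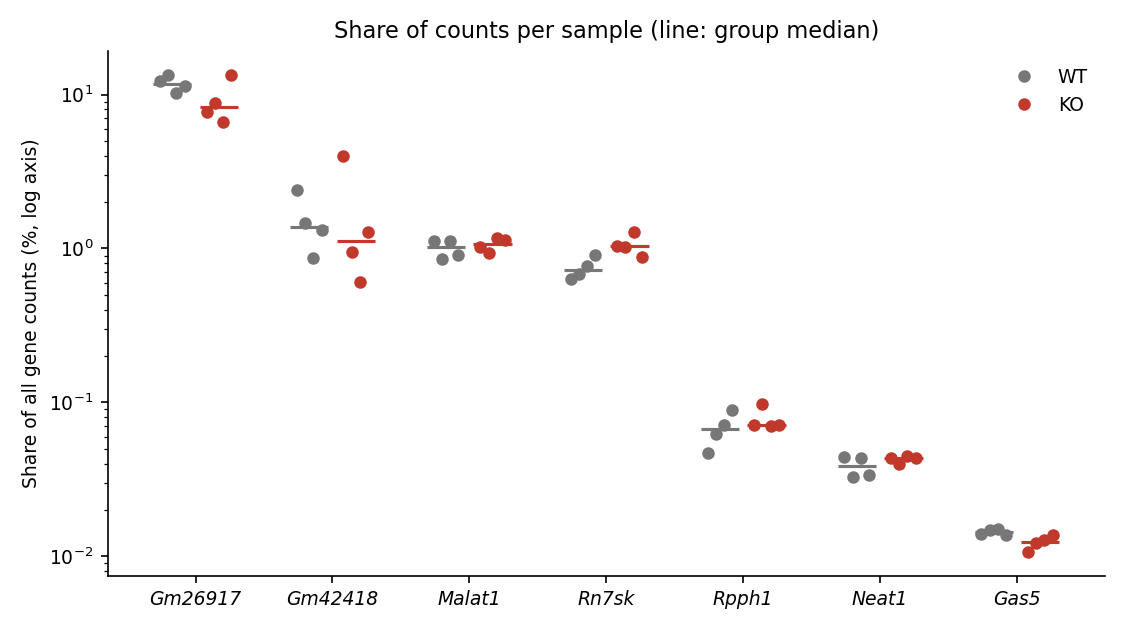
Share of all gene counts (percent, log axis) of 7 noncoding RNAs in each of the 4 WT and 4 KO samples, with lines at the group medians. *Gm26917* lies between 6.63% and 13.5%, while *Gm42418* has the widest spread, from 0.602% to 3.97%; *Rmrp* had 0 counts and is not drawn.

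The order changed when levels were set per length. The mean TMM-normalized CPM per kb of exon was 31682 for *Gm26917*, 27234 for *Rn7sk*, 8854 for *Gm42418*, 2266 for *Rpph1* and 1486 for *Malat1*. *Gas5* was at 35.6 and *Neat1* at 19.7 CPM per kb. *Rn7sk* lay next to *Gm26917* on this scale, and in the KO samples its mean (32098) was above that of *Gm26917* (27985), with ranges that overlapped. These are levels of short and long RNAs alike, and annotated exon length need not be the length of the RNA in the cell.

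*Gm26917* (ENSMUSG00000097971.3) lies at chr17:39843013-39846341 on the plus strand, is 3329 bases long and is annotated as a lincRNA with a single exon. Its share of counts was 12.3%, 13.3%, 10.3% and 11.3% in WT and 7.74%, 8.77%, 6.63% and 13.5% in KO samples. Samples 5 to 7 lay under the whole WT range, and Sample 8, the deepest library, was above them, so the groups overlapped. The log2 fold change was -0.34 (95% interval -0.71 to 0.03), with an adjusted p of 0.251 from edgeR's quasi-likelihood test. The exact two-sided permutation test on log2 CPM gave p = 0.20. Without Sample 8 the log2 fold change was -0.62 with an adjusted p of 0.000828, so this 1 library decided the call.

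The share of *Gm26917* and log2 library total had Pearson's r of 0.67 over 8 samples (permutation p = 0.0517, adjusted over 2 relations 0.103) and Spearman's rho of 0.55 (permutation p = 0.171, adjusted 0.342). The other relation computed was that of *Rn7sk* (r = -0.38, permutation p = 0.344, rho = -0.33, permutation p = 0.428). Without Sample 8 and Sample 2, r of *Gm26917* was 0.29, so the relation rested on those samples. Each genotype has 4 samples, too few for a correlation within it.

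*Gm42418* (ENSMUSG00000098178.1) lies downstream at chr17:39846958-39848788 on the same strand, and 1245 of its 1831 bases are shared with the RefSeq span of *Rn18s-rs5*. Its share was 2.39%, 1.46%, 0.867% and 1.32% in WT and 3.97%, 0.954%, 0.602% and 1.28% in KO samples. Sample 5 held the highest and Sample 7 the lowest value of all, both in the KO group. The log2 fold change was 0.19 with an interval from -0.70 to 1.09 (adjusted p = 0.848), which leaves changes in either direction larger than 1.5-fold within it. Without Sample 5 it was -0.66 (adjusted p = 0.167). On the scale of shares the sign was the opposite, with a mean difference in log2 share of -0.11 (exact permutation test, two-sided, p = 0.914), -0.15 with *Gm26917* and *Gm42418* taken out of the totals and -0.13 over protein-coding counts, so no direction is given for this gene.

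The group-centred log2 CPM of the pair had r = 0.27 over 8 samples. Counts of *Gm42418* were 19.5%, 10.9%, 8.45% and 11.6% of those of *Gm26917* in WT and 51.3%, 10.9%, 9.09% and 9.47% in KO samples. The value in Sample 5 stood apart from the other 7 samples. *CT010467.1*, annotated as rRNA on the minus strand at chr17:39846353-39848827, shares 1822 exon bases with *Gm42418* and had 2568 counts in all, 0.0751% to 0.146% of *Gm42418* in each sample. Sample 5 also held the most counts of *CT010467.1*, 896 against 73 to 537 elsewhere. The third gene at this place, *AY036118*, is nested in *CT010467.1* on the same strand and had 0 counts.

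**Figure D2:**
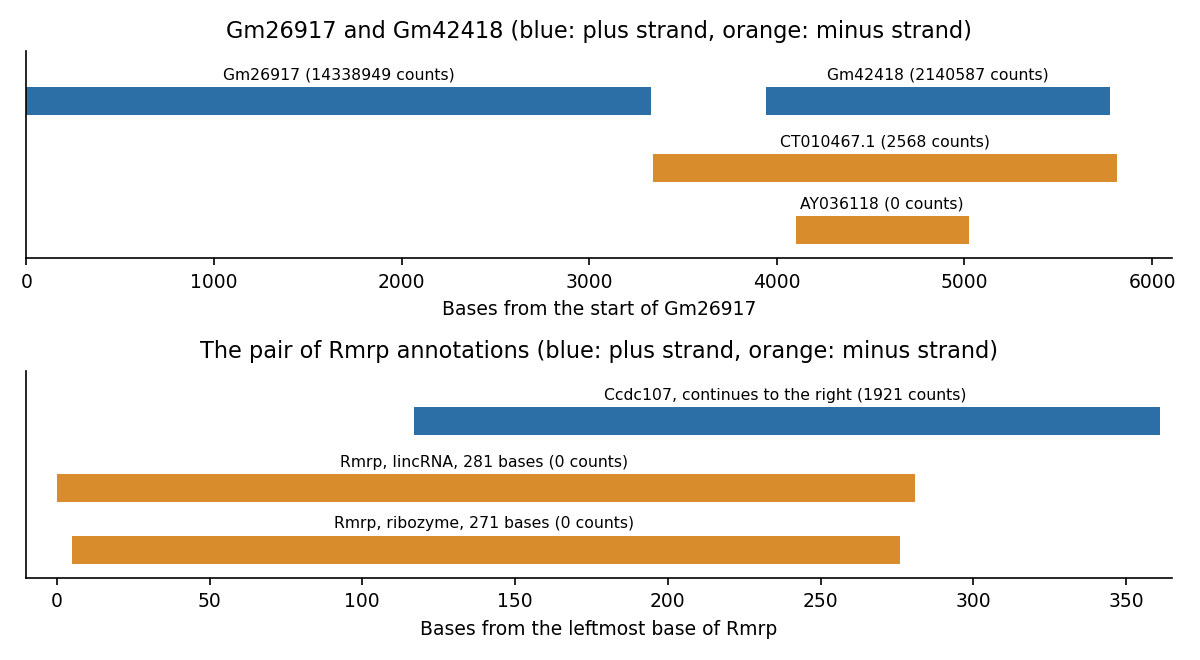
Annotated spans (GENCODE M21, in bases from the leftmost base shown) at the *Gm26917* and *Gm42418* genes and at *Rmrp*, with total counts over 8 samples; blue is the plus and orange the minus strand. Nested genes on the same strand, *AY036118* and the pair of *Rmrp* annotations, had 0 counts, whereas *Gm42418* kept 2140587 counts opposite *CT010467.1*.

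Both rows of *Rmrp* had 0 counts in all 8 samples. A count of 0 allows a share of up to 9.90e-06% in the deepest and 2.57e-05% in the shallowest library (3 counts), which limits what was counted rather than what was expressed. The longer row (ENSMUSG00000115420.1, 281 bases) contains the whole of the shorter one (ENSMUSG00000088088.1, a ribozyme of 271 bases) on the same strand. Across the table, 853 of 880 genes with at least 95% of their exon bases inside another gene's exons on the same strand, or 96.9%, had 0 counts. The share was 56.7% of 499 genes covered on the opposite strand only and 57.0% of 43430 genes covered by neither. Whether the nested annotation set the count of *Rmrp* to 0 was not tested, and no level of it is given here.

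The overlap also touched *Rpph1*, *Gas5*, *Malat1* and *Neat1*. The 10 snoRNA genes inside the merged exons of *Gas5* had 0 counts each, as did 1 small RNA gene within *Malat1* and 3 within *Neat1*. *Rpph1* shares 233 of its 319 bases with an exon of *Ccnb1ip1* on the same strand, which is 73.0% of its length, and *Ccnb1ip1* had 6 counts in all. *Rn7sk* overlaps no gene, but 200 of its 290 windows of 42 bases (69.0%), about the length of a read, also occur in transcripts of 8 other annotated genes. Those 8 genes had 869 counts in all, 0.0764% of those of *Rn7sk*. How reads that fit several places were treated was not tested, and the level of *Rn7sk* is uncertain to that extent.

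*Rn7sk* (ENSMUSG00000065037.1, chr9:78175303-78175633, minus strand) was higher in LSD1-deficient TILs, with a fitted fold under 1.5 and a 95% interval that reached past it. Its TMM-normalized CPM was 6463, 7092, 7369 and 8694 in WT and 10617, 9830, 12737 and 9313 in KO samples. The lowest KO sample, Sample 8, lay above the highest WT sample, Sample 4. The WT mean was 7404 ± 939 CPM and the KO mean 10624 ± 1507 CPM (SD, n = 4 for each). This gave a log2 fold change of 0.52 ± 0.11 (standard error, 95% interval 0.29 to 0.75) and an adjusted p of 0.00389 from edgeR's quasi-likelihood test, and the fold of 1.43 missed the threshold of 1.5. The exact two-sided permutation test gave p = 0.0286, the smallest p that 4 against 4 samples allow. Leaving out each sample in turn gave adjusted p-values of 0.00166 to 0.0185 and log2 fold changes of 0.42 to 0.61. The summed myeloid markers given above also did not overlap between genotypes, in the other direction, and neither did *Cd4* and *Klrb1c*, in the same direction. The part of these markers in the difference of *Rn7sk* was not tested.

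On the scale of raw shares the groups touched. *Rn7sk* held 0.631%, 0.685%, 0.768% and 0.904% of counts in WT and 1.04%, 1.03%, 1.27% and 0.874% in KO samples. Sample 8 was below Sample 4 here, and the exact permutation test on log2 share gave p = 0.0571. The same exact test gave p = 0.0571 with *Gm26917* and *Gm42418* taken out of the totals and p = 0.0286 for the share of protein-coding counts alone.

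*Rn7sk* was the only member of the 7 tested with an adjusted p under 0.01, in a comparison in which 5.63% of the 15378 genes tested had one at any fold and 3.37% had one with a higher level in KO. With the fold threshold of 1.5 added, 4.90% of all genes and 0 of the 7 members were called in edgeR's test and also in DESeq2. At an unadjusted p under 0.05 the count of members was 1 of 7, *Rn7sk* again, against 24.5% of all genes. The groups did not overlap in CPM in 1 of the 7 members, against 17.3% of all genes tested.

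The protein genes of the 7SK particle and of P-TEFb were given as a list of 13, of which 12 were tested. One, *Mepce*, which caps 7SK RNA, was called higher, and *Hexim1*, the inhibitor of P-TEFb within the particle, passed the adjusted p but not the fold. *Mepce* was at 64.5, 56.8, 57.7 and 53.7 CPM in WT and 80.9, 90.3, 98.3 and 80.2 CPM in KO samples, with no overlap. The fitted difference was 0.59 ± 0.11 on the log2 scale (standard error, adjusted p = 0.00263), a fold of 1.501 that lies at the threshold. *Hexim1* was at 161, 135, 149.9 and 125 CPM in WT and 187, 202, 210.4 and 228 CPM in KO samples, also with no overlap. It differed by 0.54 ± 0.11 on the log2 scale (standard error, adjusted p = 0.00285), or 1.45-fold. Without Sample 2, Sample 4 or Sample 7, the adjusted p of either gene was 0.011 to 0.016. The fold of *Mepce* was under 1.5 in those fits and without Sample 3 or Sample 6. It was also under 1.5 with library size as the only scaling or with upper quartile scaling. The log2 fold change in these fits was 0.53 to 0.58, so the call of *Mepce* depended on the samples and the scaling.

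*Larp7*, which binds the 3′ end of 7SK RNA, differed by 0.17 (95% interval -0.19 to 0.52, adjusted p = 0.606). *Cdk9*, the kinase of P-TEFb, differed by 0.05 (adjusted p = 0.873), and its cyclins *Ccnt1* and *Ccnt2* by 0.12 and 0.13. The median log2 fold change of the 12 genes was 0.17, against -0.01 over all genes tested, and 11 of the 12 values were above 0. None was lower past the test. The groups did not overlap in 3 of the 12, against 17.3% of all genes tested.

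**Figure D3:**
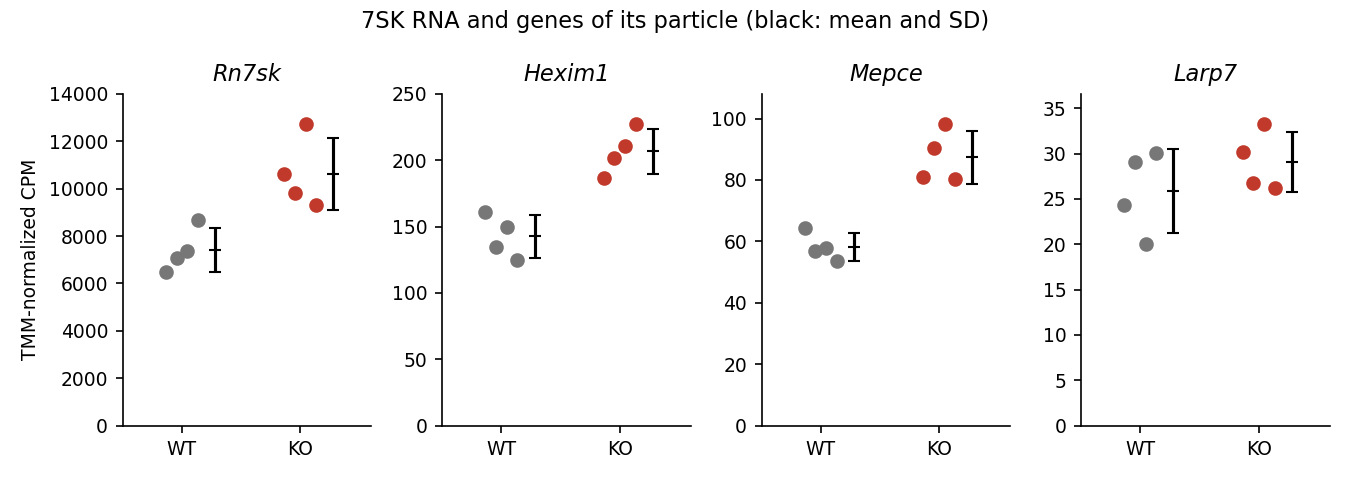
TMM-normalized CPM of *Rn7sk* and of 3 protein genes of its particle in each WT and KO sample, with the mean and SD in black; each axis starts at 0. The groups do not overlap for *Rn7sk*, *Hexim1* and *Mepce* and overlap for *Larp7*.

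*Rpph1* (ENSMUSG00000092837.1, chr14:50807449-50807767, minus strand) was at 479, 647, 682 and 852 CPM in WT and 723, 939.8, 701 and 758 CPM in KO samples. The lowest was Sample 1 and the highest Sample 6, and the groups overlapped. Its log2 fold change was 0.23 (95% interval -0.07 to 0.53, adjusted p = 0.346). Of 11 protein genes of RNase P and MRP, 9 were tested and 0 had an adjusted p under 0.01 in edgeR or DESeq2, and 3 of the 9 an unadjusted p under 0.05 (24.5% over all genes), with a median log2 fold change of -0.26. The lowest value among those was -0.75 for *Rpp14*, whose groups did not overlap (adjusted p = 0.0751). The groups did not overlap in 2 of the 9, against 17.3% of all genes tested, so this count is no result about the list.

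Other short structured RNAs were given as a list of 20 that includes *Rn7sk*, *Rpph1* and *Rmrp*, of which 13 were tested. *Rn7sk* was the 1 with an adjusted p under 0.01, and 3 of the 13 were at an unadjusted p under 0.05. Of the 13 log2 fold changes 10 were above 0, with a median of 0.47. *Rn7s2*, an RNA of the signal recognition particle, had a log2 fold change of 0.43 (adjusted p = 0.188). *Scarna2*, the most counted of the Cajal body RNAs, had one of 0.24 (adjusted p = 0.131), and 0 of 5 tested genes of that list of 9 passed in edgeR or DESeq2, with 3 at an unadjusted p under 0.05. Among 28 genes of the RNA polymerase III machinery, which makes 7SK, RNase P and RNase MRP RNA, 0 passed in edgeR, with a median of 0.13, 4 at an unadjusted p under 0.05 and 1 (*Gtf3c1*) in DESeq2. Among 15 tested genes of the RNA polymerase I machinery, which makes rRNA precursors, 0 passed in edgeR or DESeq2, with a median of -0.31, 3 values above 0 and 4 at an unadjusted p under 0.05. Over all genes tested 24.5% were at an unadjusted p under 0.05, so the counts of 3 of 13, 4 of 28 and 4 of 15 are no result about these lists. With only 5 tested genes, the count of 3 for the Cajal body RNAs is not read as a result either. At the chromosome 17 genes and rRNA rows, 4 of 11 listed genes were tested, and 0 passed in edgeR or DESeq2 or at an unadjusted p under 0.05. Of the 2 mitochondrial rRNAs, 0 passed in edgeR or DESeq2, also at an unadjusted p under 0.05.

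*Malat1* (ENSMUSG00000092341.3, chr19:5795690-5802672, minus strand, 1 exon) and *Neat1* (ENSMUSG00000092274.3, chr19:5824708-5845478, minus strand) are neighbors, with *Neat1* upstream. The share of *Malat1* was 1.12%, 0.859%, 1.13% and 0.91% in WT and 1.02%, 0.936%, 1.17% and 1.13% in KO samples, the narrowest range of the abundant members. Its log2 fold change was 0.11 (95% interval -0.12 to 0.34, adjusted p = 0.597), an interval that does not reach 1.5-fold in either direction.

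*Neat1* was at 452, 339.6, 416 and 325 CPM in WT and 443, 379.7, 448 and 464 CPM in KO samples. The groups overlapped, with the lowest values in Sample 2 and Sample 4. Its log2 fold change was 0.18 (95% interval -0.06 to 0.42, adjusted p = 0.361). Counts of *Neat1* were between 3.71% and 3.93% of those of *Malat1* in WT and between 3.83% and 4.26% in KO samples, so the ratio moved less than either level.

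Within genotypes the pair varied together, with r = 0.95 between their log2 CPM after each group's mean was subtracted, over 8 samples of which each pair of values shares a library. Among 7199 genes with a mean log2 CPM above 4, *Neat1* was at place 6 by its likeness to *Malat1*. The 3 genes most like *Malat1* were *Plcg1*, *Ell* and *Gm42748* (r = 0.96, 0.96 and 0.95), and those most like *Neat1* were *Sf3b1*, *Jmjd1c* and *Smg8* (each r = 0.98). *Rpph1* ran against both, with r = -0.75 to *Malat1* and -0.83 to *Neat1*, and against *mt-Rnr2* (r = -0.83). *Rn7sk* and *Gm26917* had r = -0.69. With so few samples and so many genes, high values of r occur for every member, and the most like genes were at r of 0.98 for *Rn7sk* (*Anxa5*), 0.99 for *Gm26917* (*Ifrd1*), 0.99 for *Gm42418* (*Slc35f6*), 0.97 for *Rpph1* (*M6pr*) and 0.98 for *Gas5* (*Tiparp*).

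**Figure D4:**
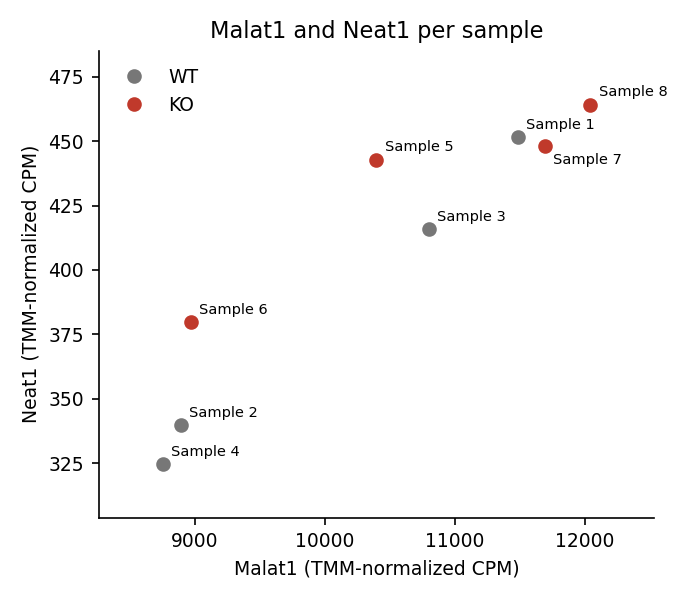
TMM-normalized CPM of *Neat1* against *Malat1*, a point for each of 4 WT and 4 KO samples. Samples with more *Malat1* had more *Neat1* within each genotype (r = 0.95 after subtracting group means), and the genotypes are interleaved.

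Of the 17 genes of paraspeckles and speckles, 0 passed the adjusted p of 0.01 in edgeR and 3 were at an unadjusted p under 0.05, against 24.5% of all genes. *Pspc1*, a paraspeckle protein gene that passed in DESeq2, was at 0.53 (adjusted p = 0.0168 in edgeR). Its groups did not overlap, which held for 1 of the 17. Among 8 tested nuclear lncRNAs of a list of 14 that includes *Malat1* and *Neat1*, 0 passed in edgeR and 2 were at an unadjusted p under 0.05. The groups did not overlap in 1 of the 8, *Firre*, against 17.3% of all genes tested, so this count is no result about the list. *Firre* had a WT mean of 26.5 ± 9.31 CPM and a KO mean of 46.8 ± 4.42 CPM (SD, n = 4 each, log2 fold change 0.82, adjusted p = 0.0162 from edgeR). It was called in DESeq2 at a fold above 1.5 and an adjusted p under 0.01, as were 1078 of the 15378 genes tested.

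*Gas5* (ENSMUSG00000053332.13, chr1:161034422-161038539, plus strand) was at 142, 154, 144 and 133 CPM in WT and 109, 117, 128 and 146 CPM in KO samples. Samples 5, 6 and 7 lay under the WT range and Sample 8 within it. Its log2 fold change was -0.20 (95% interval -0.42 to 0.03, adjusted p = 0.283). As a share of all counts the groups did not overlap, with a WT range of 0.0138% to 0.0150% and a KO range of 0.0107% to 0.0137% (exact permutation test, two-sided, p = 0.0286), but with *Gm26917* and *Gm42418* taken out of the totals p was 0.0571. Of 21 listed snoRNA host genes 15 were tested, 0 passed the adjusted p of 0.01 in edgeR or DESeq2, 2 were at an unadjusted p under 0.05, and 13 of the 15 log2 fold changes were below 0, with the median at the value of *Gas5* itself. Among 10 genes of nonsense-mediated decay, the pathway known to degrade *Gas5*, 0 passed in edgeR or DESeq2, 2 were at an unadjusted p under 0.05, and the median was 0.08.

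**Figure D5:**
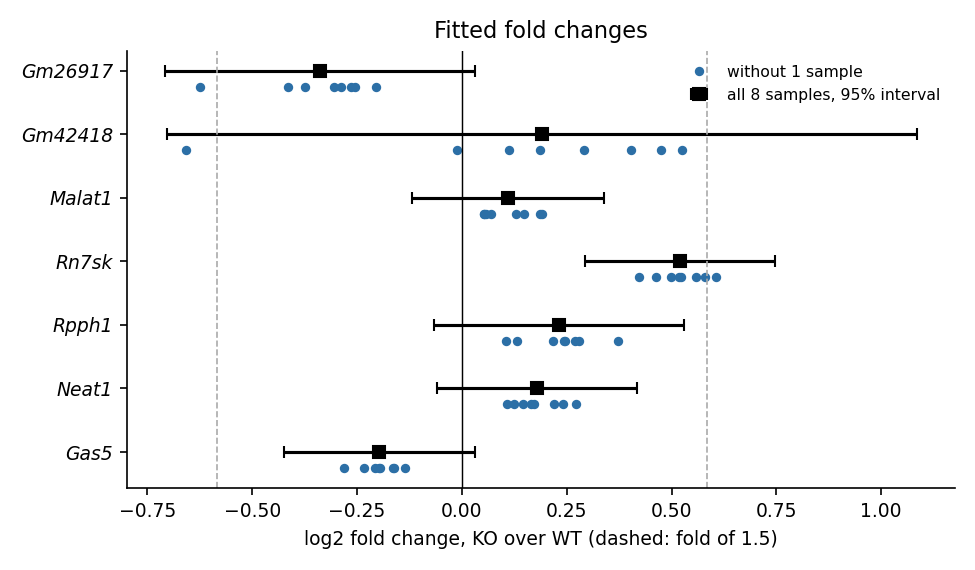
Fitted log2 fold change (KO over WT) of the 7 tested members with the 95% interval (black), and the value without each sample in turn (blue dots); dashed lines mark a fold of 1.5. Only the interval of *Rn7sk* lies on a single side of 0, and the dots of *Gm42418* fall on both sides.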

How the data were processed

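RNA of sorted CD8+CD44+PD-1+ TILs was measured in 4 WT and 4 KO samples from rRNA-depleted, directional libraries. The authors aligned reads of 43 and 42 bp (per the labels and methods; the design text gives a different length) with STAR to GRCm38 and counted them with featureCounts. The deposited values are raw counts per gene, without normalization, and the handling of strand and of reads with several places is not given in the sources used here. The columns are named by number only, with no genotype and no replicate number; they were assigned to WT and KO by the same numbers in the study's principal component plot. The members and the gene lists were chosen with earlier results of these data known.

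Counts of 55335 rows were filtered with filterByExpr (15378 genes) and tested with edgeR 4.0.16 in R 4.3.3 (TMM factors, glmQLFit, glmQLFTest, Benjamini-Hochberg adjustment over all genes tested), called at a fold above 1.5 and an adjusted p under 0.01. The log2 CPM used a prior count of 2. For single members, an exact permutation test (two-sided, 70 arrangements of 4 against 4) was added. Each of the 12 pairs of replicates differed beyond sampling noise (chi-square per gene, medians 4.92 to 8.46, where noise alone gives 0.455). WT samples pool mice and KO samples do not, so their spreads need not be alike. The steps were tested on simulated data. Alternatives were DESeq2 1.42.0, other scalings, filters and tests, GC content and exon length offsets (mgcv 1.9.3), other denominators of shares, and leaving out each sample; those for the likeness of *Malat1* and *Neat1* were chosen after seeing the data.

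Annotation came from GENCODE M21 on GRCm38, an earlier release than the authors' on the same build, which matched 55154 of the gene identifiers, all 9 rows of the members in the same version. RefSeq spans came from GRCm38.p6. Genes named were the members, genes overlapping them, the genes most like each member, called genes of the lists and noncoding genes among the 20 with the most counts; all other list genes named, such as *Pspc1*, *Firre* and *Rpp14*, were chosen after their values were seen.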

Additional observations from a re-analysis of the deposited data

Results flagged for a closer look

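The ratio of *Gm42418* to *Gm26917* counts in Sample 5, a KO sample, was 51.3%, and its gap to the next KO sample was larger than the 95% limit of Dixon's test for 4 values allows. The other KO samples were at 9.09% to 10.9%. Of 24 groups of 4 values examined in this way, 1 stood out, and chance alone would single out about 1 in 20.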

How the results depend on the processing

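Of 133 recomputed log2 fold changes of the members, 129 kept their direction and stayed on the same side of the call, a fold above 1.5 with an adjusted p under 0.01, and 11 of 14 recomputed shares kept theirs in the exact permutation test (p of 0.05). The number of genes called, 753 with all samples, was 1173 without a low-count filter, 295 with edgeR's glmTreat against a fold of 1.5 and 1246 at an adjusted p under 0.05, and 546 to 749 when a sample was left out. The log2 fold change of *Rn7sk* lay between 0.42 and 0.61 when a sample was left out and passed the fold of 1.5 only without Sample 4. Over its 19 alternatives the adjusted p was under 0.01 in 13 and not in 6, from 4.9e-05 in DESeq2 to 1 in glmTreat, and was 0.0121 with library size as the only scaling. *Gm26917* was called, at -0.62, only without Sample 8. *Gm42418* turned to -0.01 without Sample 3 and to -0.66 without Sample 5, and was at most 0.53 (without Sample 1). The log2 ratio of the share of *Rn7sk*, 0.50 over all counts, was 0.46 without *Gm26917* and *Gm42418*, with p still 0.0571, and 0.48 over protein-coding counts, where p fell to 0.0286. That of *Gm42418* was -0.11, against a fitted log2 fold change of 0.19. The log2 ratio of the share of *Gas5*, -0.23, was -0.27 without *Gm26917* and *Gm42418* and -0.25 over protein-coding counts, where p rose to 0.0571 in both. The cause was not tested for any of these. The r of *Malat1* and *Neat1* was 0.93 to 0.96 under 10 alternatives. No scaling moved the median of all genes by over 0.1. No paired analysis was possible because the columns carry no replicate numbers. Both rows of *Rmrp* were at 0 in all samples, so no alternative gave it a value, and the 7 other members had counts of 1442 or more in each sample.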
